A study of Rattus norvegicus with 4 samples.

Results

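The genes described here are 35 components, feedback regulators and targets of the transcription factor NF-kB, together with inflammatory cytokines, out of 31038 gene rows measured by ribosome profiling. They were picked by gene symbol from a list drawn up with earlier results of these data known, and all 35 symbols had a row in each of the 4 libraries. Ribosome profiling sequences the stretches of RNA that ribosomes protect, so a count is a measure of footprint abundance. The cells were rat myocardial cells labelled NRVM, an abbreviation most often used for ventricular myocytes of newborn rats, although the growth protocol names embryonic heart. The group siNT received a control siRNA and the group si3m an siRNA against eIF3m, a subunit of the translation initiation factor eIF3, with 2 libraries each. All 4 libraries shared growth in serum and a cycloheximide step that holds ribosomes in place. The labels give no time, dose, animal number or inflammatory stimulus, and they do not say whether a group's 2 libraries are separate cultures. P-values therefore reflect the spread between libraries alone, and that spread may be technical. In the main test the spread of each gene was estimated largely from the other genes (2 residual against 13.1 prior degrees of freedom). RNA abundance was not analysed here, so a change in footprints can come from RNA level or from translation.

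NF-kB is a family of dimers built from Rela, Relb, Rel and the processed products of Nfkb1 and Nfkb2. In resting cells, inhibitors of the IkB family hold the dimers in the cytoplasm. Receptors for TNF, interleukin 1 and microbial products act through TRAF adaptors and ubiquitin ligases to switch on the IKK kinase complex, which marks IkB for destruction. The freed dimers bind short DNA elements called kB sites and raise transcription of chemokines, cytokines, adhesion molecules and several of the pathway's own inhibitors, which end the response. In the heart the pathway is known for its activity after ischemia and in inflammation.

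Depth differed with group, total counts running from 3835750 to 3924434 in siNT and from 6726969 to 8687598 in si3m. Eif3m itself had 532 and 451 CPM in the siNT libraries and 138 and 191 CPM in the si3m libraries, where CPM is the count scaled to a common library size after TMM adjustment, a step that centres the bulk of genes between libraries. It was lower in si3m in the quasi-likelihood test of edgeR, p adjusted by Benjamini-Hochberg (log2 fold change -1.59, SE 0.11, adjusted p = 3.41e-08), although with a robust estimate of the spread the adjusted p was 0.0522. Of 12 cardiomyocyte markers, 6 had no library above 6 counts, and Tnni3, Myl7 and Nppa had 0 counts in every library. The 12 summed to 73.7 and 68.6 CPM in siNT and 49.5 and 57.9 CPM in si3m, and of the 3 that could be tested Tnnt2 was higher (log2 1.25) and Ttn and Pln were lower (log2 -0.64 and -1.56). The 10 fibroblast markers summed to 7424 and 7345 CPM in siNT and to 12560 and 12412 CPM in si3m. Of these sums, Col1a1 alone made up 3852 and 3747 CPM in siNT and 6817 and 6690 CPM in si3m. Tcf21 had 0 counts in every library, and Pdgfra and Lum had too few counts for a test. All 7 fibroblast markers that could be tested were higher in si3m. Dcn, among these 7, had 0 counts in both siNT libraries. It entered the test only through si3m and so had to be higher. The 14 leukocyte markers summed to 31.4 and 39.1 CPM in siNT and 16.5 and 17.3 CPM in si3m. Of these 14, 10 were at or under 6 counts in every library, and Aif1, C1qb, C1qc and Tyrobp had 0 counts. Cd14 made up most of each sum, with 21.4 and 22.9 CPM in siNT and 14.4 and 14.8 CPM in si3m. Adgre1 had 5.97 and 8.64 CPM in siNT and 0.471 and 0 CPM in si3m. The 8 endothelial markers summed to between 3.48 and 5.59 CPM, with Cdh5, Emcn and Esam at 0 counts. The 4 smooth muscle markers summed to 3141 and 3107 CPM in siNT and to 3616 and 3683 CPM in si3m. Of these, Acta2 was higher (log2 0.35) and Tagln lower (log2 -0.23), while Myh11 and Cnn1 did not pass (log2 0.77 and -0.57). In pooled cells of this kind, fewer cells of a type and fewer footprints per cell cannot be told apart, and the part of cell composition in the results that follow was not tested.

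The kB sites near the start of these genes are shown because they are the DNA elements through which NF-kB acts on its targets. RefSeq promoters of the rat build GRCr8 (250 bases before to 50 bases after the annotated start) were present for 27 of 35 members. The 10-base kB consensus was searched on both strands and was found in 16 of these 27 promoters, or 59.3%, against 7.51% of all 33469 promoters of the same length. The members were listed as NF-kB components and targets, so this share describes how the list was made and is not a test. Matches may overlap one another, and a match is a run of letters, not a measured binding site. In each sequence below the capitals mark the match or the joined matches, written 5′ to 3′ on the gene's strand, and all stretches end before the start. The first 6 belong to members whose footprints were higher in si3m. The last 4 belong to members that did not pass the test.
Tnfaip3, chr1:15544125-15544164, minus strand: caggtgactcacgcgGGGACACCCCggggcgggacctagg
Tnfaip3, chr1:15544010-15544061, minus strand: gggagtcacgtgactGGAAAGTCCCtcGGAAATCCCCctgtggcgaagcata
Vcam1, chr2:206742852-206742891, minus strand: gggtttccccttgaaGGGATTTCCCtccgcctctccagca
Il6, chr4:5894619-5894658, minus strand: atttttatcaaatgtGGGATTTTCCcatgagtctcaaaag
Cxcl1, chr14:17479380-17479420, minus strand: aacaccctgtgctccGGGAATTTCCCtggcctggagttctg
Nfkbie, chr9:22948012-22948051, minus strand: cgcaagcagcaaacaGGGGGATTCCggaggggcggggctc
Nfkbia, chr6:78597079-78597118, minus strand: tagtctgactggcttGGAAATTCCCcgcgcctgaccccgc
Tnip1, chr10:39585021-39585062, minus strand: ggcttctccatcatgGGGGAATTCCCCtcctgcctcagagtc
Nfkb2, chr1:255108339-255108373, plus strand: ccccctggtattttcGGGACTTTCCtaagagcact
Nfkbiz, chr11:58251693-58251720, plus strand: gtatctttttggcctGGGAATTTCCagc

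Tnfaip3 held matches beginning 170, 67 and 55 bases before its start. In Vcam1 the match began 93 bases before the start, in Il6 68 bases, in Cxcl1 84 bases and in Nfkbie 164 bases. Among members with a promoter in the table, a match was present in 5 of the 6 that were higher in si3m, in 1 of the 2 that were lower, in 7 of the 12 tested members that did not pass and in 3 of the 7 that could not be tested. A match was therefore common both in members that rose and in members that did not pass, as the plot of match positions shows. Icam1, which rose, had no match in this window.

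**Figure D1:**
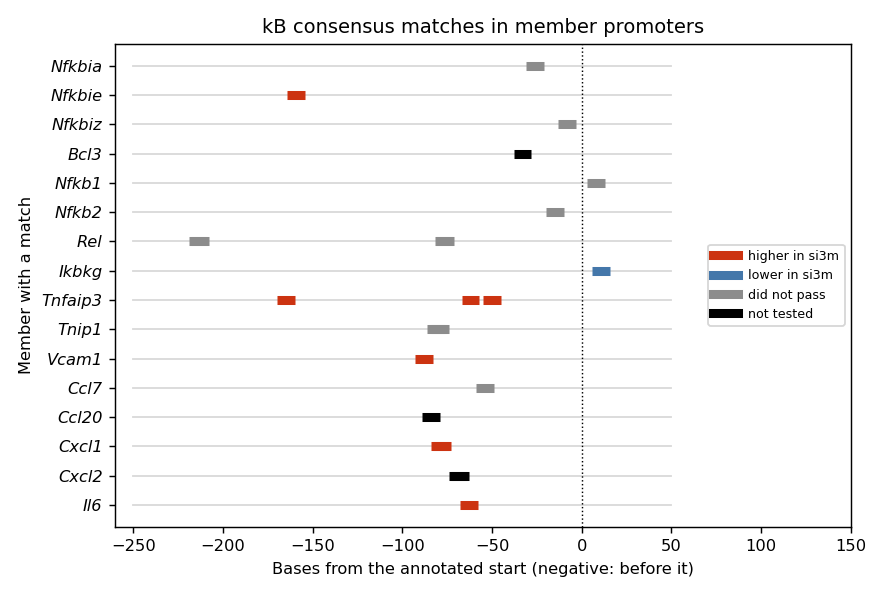
Positions of kB consensus matches in the promoters of the 16 members that had one, on an axis of bases from the annotated start, coloured by the outcome of the si3m against siNT test. Matches of members that rose and of members that did not pass or were not tested lie at overlapping distances, as with Cxcl1 (84 and 83 bases before the start) and Tnip1 (86 to 84 bases).

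Footprints of several NF-kB targets and of the inhibitors Tnfaip3 and Nfkbie rose in si3m, while those of the inhibitor Nfkbia and of the NF-kB subunits did not pass the test and 2 of the 3 IKK subunits fell. Enough counts for a test were present in 26 of the 35 members, and of these 7 rose in si3m, 2 fell and 17 did not pass an adjusted p of 0.05. The 7 that rose were Tnfaip3, Il6, Nfkbie, Vcam1, Icam1, Cxcl1 and Csf1, and the 2 that fell were the IKK subunits Ikbkg and Chuk. The rises were 26.9% of tested members, against 14.0% of the 12672 genes tested across the whole table, and the falls 7.69% against 13.9%. The median log2 fold change of the 26 tested members was 0.22, beside 0.02 over all tested genes, and was 0.54 without siNT replicate 2. Without that library, or without si3m replicate 2, 1 member was lower. With total count scaling 6 members were higher and 3 lower, as the split over all genes moved from 1771 higher and 1757 lower to 1428 and 2217. Values of both si3m libraries lay above both siNT libraries for 12 members (46.2%, against 32.6% of all tested genes) and below both for 5 (19.2%, against 31.3%). Relb, among the 12, entered the test only through its si3m libraries, so its place there was largely fixed in advance. Among 9 tested adhesion molecules, chemokines, cytokines and Ptgs2, 5 rose and 0 fell in edgeR's test (also 0 at an unadjusted p of 0.05 and 0 in DESeq2), and the median log2 was 0.57. Ptgs2, 1 of these 9, passed as lower under total count scaling. Among 17 tested signalling components and regulators, 2 rose and 2 fell, 11.8% in each direction, which is near the background. This grouping is by role, and the 17 also hold genes that NF-kB itself induces. Examples are Tnfaip3, which rose, and Nfkbia and Birc3, which did not pass. The other rise among the 17 was Nfkbie. These counts describe the list, and no test compared the targets with the components.

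**Figure D2:**
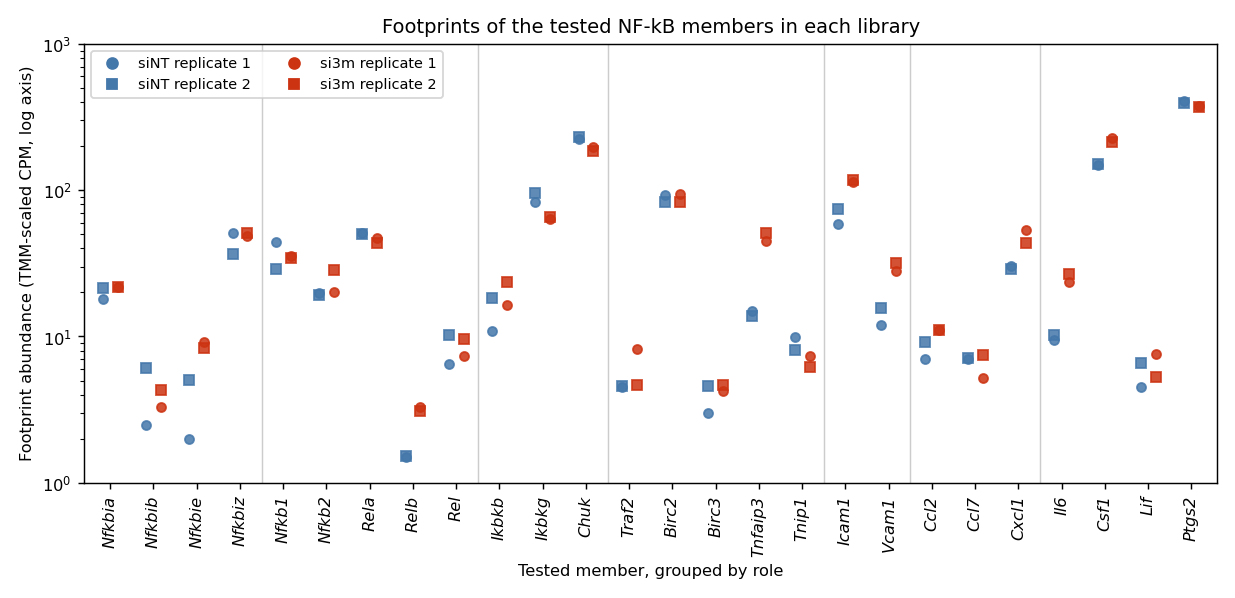
Footprint abundance of the 26 tested members in each library, in TMM-scaled CPM on a log axis, with members grouped by role and siNT in blue and si3m in red (circle for replicate 1, square for replicate 2). The red points of Tnfaip3, Icam1, Vcam1, Cxcl1, Il6 and Csf1 stand apart above the blue ones, while those of Nfkb1, Rel and Birc2 overlap.

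Among the IkB inhibitors, Nfkbie rose and the others did not pass. Nfkbie, which encodes IkB epsilon, had 1.99 and 5.08 CPM in siNT and 9.19 and 8.35 CPM in si3m. Both si3m values were above both siNT values, yet the siNT libraries themselves differed by more than the si3m libraries did. The rise was 2.48-fold (log2 1.31, SE 0.44, adjusted p = 0.0363), from only 8 and 20 deposited counts in siNT. The call was lost without siNT replicate 1 (adjusted p = 0.178), where the log2 fold change was 0.79, and without either si3m library (0.154 without replicate 1 and 0.0759 without replicate 2), and without siNT replicate 2 the log2 value was 2.14 and passed. DESeq2 gave an adjusted p of 0.116, and total count scaling and thinned counts also ended the call (0.0503 and 0.0888).

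Nfkbia encodes IkB alpha, the main fast-acting inhibitor that NF-kB itself induces. It had 17.9 and 21.3 CPM in siNT and 21.9 and 22.0 CPM in si3m, and the small difference did not pass (log2 0.16, SE 0.22, adjusted p = 0.635). Nfkbiz, an atypical nuclear IkB protein that works as a cofactor for secondary targets such as Il6, had 51.3 and 36.6 CPM against 48.8 and 51.4 CPM, so the groups overlapped (log2 0.19, SE 0.17). Nfkbib, which encodes IkB beta, had 2.49 and 6.10 CPM against 3.30 and 4.33 CPM and overlapped as well, and its row shares genome with the predicted locus LOC103689966. Bcl3, a nuclear IkB protein that partners the p50 and p52 dimers, had 4 and 2 counts in siNT and 0 in both si3m libraries. No library of Bcl3 exceeded the floor of 6 counts, so no direction is read from it.

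The 5 subunit genes of NF-kB had 0 calls in edgeR's test, 0 at an unadjusted p of 0.05 and 0 in DESeq2. Over all tested genes edgeR called 14.0% higher and 13.9% lower, so 0 calls among only 5 genes says little about them as a set. Rela, the subunit with the strongest activation domain, had 51.3 and 50.3 CPM in siNT and 46.9 and 43.3 CPM in si3m. Its groups did not overlap, but the difference was small against its error (log2 -0.17, SE 0.14, adjusted p = 0.415). Nfkb1, the precursor of p50, had 44.3 and 29.0 CPM against 35.3 and 34.3 CPM, with both si3m values inside the siNT range. Nfkb2, the precursor of p52 in the alternative pathway, had 19.9 and 19.3 CPM against 20.02 and 28.5 CPM, the spread coming from si3m replicate 2 (log2 0.30, SE 0.23). Rel had 6.47 and 10.2 CPM against 7.30 and 9.59 CPM, overlapping throughout. Relb, the partner of p52, had 1.49 and 1.52 CPM in siNT, or 6 counts in each, and 3.30 and 3.09 CPM in si3m. Relb entered the test only through its si3m libraries, and its log2 value of 1.07 (SE 0.63) did not pass (adjusted p = 0.233).

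Both members that fell belong to the IKK complex. Ikbkg encodes NEMO, the regulatory subunit that binds ubiquitin chains. It had 83.6 and 95.5 CPM in siNT and 63.1 and 65.6 CPM in si3m, with no overlap. The fall was 1.39-fold (log2 -0.48, SE 0.12, adjusted p = 0.00584) and passed under all 14 alternative settings, with adjusted p between 4.64e-04 and 0.0387. The strand setting of the counting is not given in the sources used here, so reads of any overlapping gene could not be told apart from those of Ikbkg, and their part in its fall was not tested.

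Chuk encodes IKK alpha, the kinase of the alternative pathway. Its footprints were 223 and 231 CPM in siNT and 199 and 186 CPM in si3m, without overlap. The fall was 1.18-fold (log2 -0.24, SE 0.065, adjusted p = 0.0134) and lost its call in DESeq2 (0.0555), with thinned counts (0.0609), without siNT replicate 2 (0.0628) and without si3m replicate 2 (0.148). Ikbkb encodes IKK beta, the kinase that marks IkB alpha. It had 10.95 and 18.3 CPM against 16.5 and 23.5 CPM, so the groups overlapped and the test did not pass (log2 0.44, SE 0.28, adjusted p = 0.268). Ikbkb passed as higher without siNT replicate 2 (log2 0.86, adjusted p = 0.0161), and its annotation overlaps that of Plat, which had 215 and 203 CPM against 270 and 231 CPM.

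Tnfaip3 showed the largest rise among the tested members. It encodes A20, a ubiquitin-editing enzyme that NF-kB induces and that ends signalling upstream of IKK. Deposited counts were 60 and 54 in siNT and 384 and 330 in si3m, or 14.9 and 13.7 CPM against 45.2 and 51.0 CPM. Both si3m libraries were far above the controls, and the replicates lay close together. The rise was 3.35-fold (log2 1.74, SE 0.19, adjusted p = 4.94e-06) and passed under all 14 alternatives, the highest adjusted p being 1.41e-05. The log2 value of Tnfaip3 was above that of 98.7% of all tested genes. Its partner Tnip1, which encodes the A20-binding protein ABIN1, did not pass. Tnip1 had 9.96 and 8.13 CPM in siNT and 7.30 and 6.19 CPM in si3m (log2 -0.42, SE 0.34, adjusted p = 0.403).

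Of the TRAF adaptors and cellular inhibitors of apoptosis, Birc2, Birc3 and Traf2 were tested and did not pass. Birc2, a ubiquitin ligase of TNF receptor complexes, had 93.1 and 82.8 CPM in siNT and 93.7 and 82.6 CPM in si3m, almost the same pair of values in both groups (log2 0.01, SE 0.11). Its neighbour and paralog Birc3, a known NF-kB target, had 2.99 and 4.57 CPM against 4.24 and 4.64 CPM, from at most 36 counts in a library. Traf2 had 4.48 and 4.57 CPM against 8.24 and 4.64 CPM, the higher si3m mean resting on replicate 1 (log2 0.52, SE 0.43). Traf1, an NF-kB-induced adaptor, was below the filter with 4 and 2 counts in siNT against 14 and 20 in si3m. Counted as fragments of 2 counts each, Traf1 went from 3 to 17, a depth-corrected ratio of 2.85 with an exact 95% interval of 0.825 to 15.2, which covers counting error only. Cd40, a receptor of the TNF receptor family, had 0 counts in all 4 libraries.

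Both adhesion molecules rose. Icam1, which leukocytes bind through integrins, had 58.7 and 74.7 CPM in siNT and 115 and 118 CPM in si3m. The si3m libraries were close to each other and above both controls, a 1.75-fold rise (log2 0.80, SE 0.12, adjusted p = 8.64e-05). Vcam1, the ligand of integrin alpha 4 on leukocytes, had 11.9 and 15.8 CPM in siNT and 28.0 and 31.9 CPM in si3m. Its rise was 2.16-fold (log2 1.11, SE 0.23, adjusted p = 0.00174). Both genes passed under all 14 alternatives, with adjusted p of at most 3.16e-04 for Icam1 and 0.00921 for Vcam1. Fibroblasts and endothelial cells can both make these proteins. The sums of their markers are given above, and the part of cell composition in these rises was not tested.

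**Figure D3:**
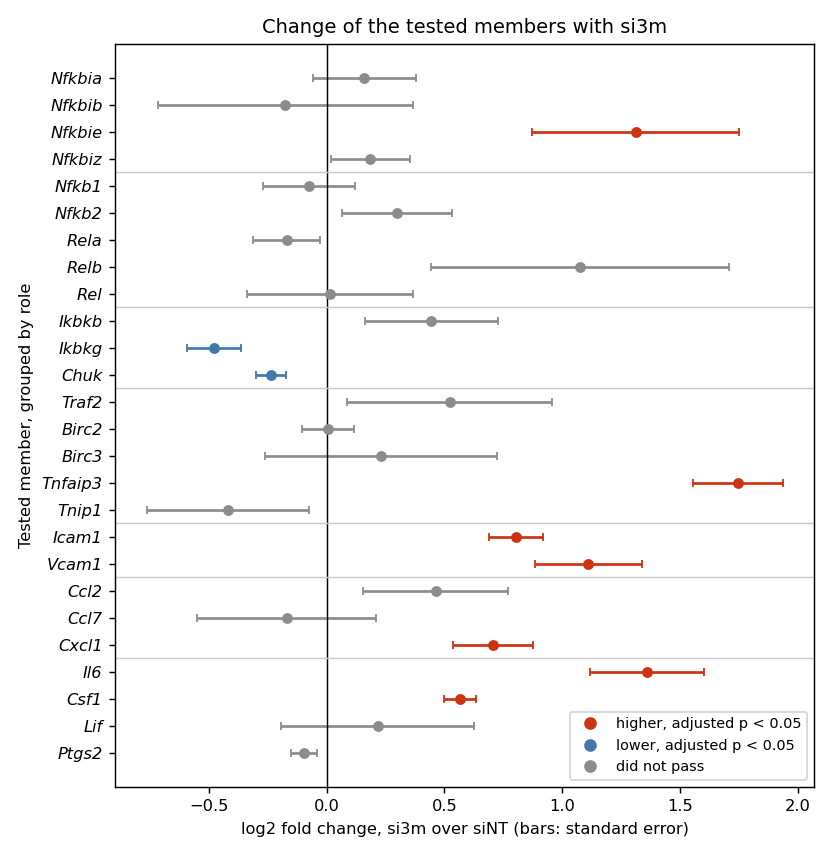
Log2 fold change of si3m over siNT for the 26 tested members, with bars for the standard error and colour for the outcome of edgeR's test at an adjusted p of 0.05. The 7 rises run from 0.57 for Csf1 to 1.74 for Tnfaip3, and the falls are -0.48 for Ikbkg and -0.24 for Chuk.

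Of 6 chemokines, 3 had enough counts, and Cxcl1 rose. Cxcl1, which draws neutrophils, had 30.4 and 29.0 CPM in siNT and 53.2 and 43.3 CPM in si3m, without overlap. The rise was 1.63-fold (log2 0.71, SE 0.17, adjusted p = 0.00546), and it did not pass without si3m replicate 1 (log2 0.56, adjusted p = 0.100). Ccl2, which draws monocytes, had 6.97 and 9.15 CPM against 11.1 and 11.1 CPM, above the controls in both libraries but not past the test (log2 0.46, SE 0.31, adjusted p = 0.293). Its neighbour Ccl7 had 6.97 and 7.11 CPM against 5.18 and 7.42 CPM and overlapped (log2 -0.17, SE 0.38). Cxcl2, the neighbour of Cxcl1 with a closely related sequence, never exceeded 6 counts in a library, so reads shared by the pair could not be assessed. Ccl20 had at most 4 counts and Ccl5 at most 2.

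Among the cytokines, Il6 and Csf1 rose. Il6, the cytokine behind the acute phase response, had 9.46 and 10.2 CPM in siNT and 23.6 and 26.9 CPM in si3m. The replicates of each group were close, and the rise was 2.56-fold (log2 1.36, SE 0.24, adjusted p = 5.50e-04). Csf1, the growth factor of macrophages, had 149 and 151 CPM against 229 and 215 CPM. Its rise was smaller, 1.48-fold, but precise at this depth (log2 0.57, SE 0.069, adjusted p = 1.64e-05). Il6 and Csf1 passed under all 14 alternatives. Lif, a cytokine of the same receptor family as Il6, had 4.48 and 6.61 CPM against 7.54 and 5.26 CPM and overlapped (log2 0.22, SE 0.41, adjusted p = 0.741).

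Ptgs2, the inducible cyclooxygenase of prostaglandin synthesis, had the most counts of all members and did not pass. It had 408 and 396 CPM in siNT and 379 and 373 CPM in si3m, slightly lower in both si3m libraries (log2 -0.10, SE 0.054, adjusted p = 0.213). With total count scaling in place of TMM, Ptgs2 passed as lower (log2 -0.18, adjusted p = 0.0284). Its SE of 0.054 is the smallest among the tested members.

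Il1a, Il1b and Tnf, the cytokines that head the pathway, were near or under the counting floor. A count of 0 allows up to 3 fragments, or 6 deposited counts, which equal 1.53 and 1.56 CPM of the library total in siNT and 0.691 and 0.892 in si3m. Il1b had 6 and 4 counts in siNT and 0 in both si3m libraries, and Tnf had 2 and 2 counts in siNT and 0 in both. No fold is given for either, since no library exceeded the floor. Il1a had 12 and 2 counts in siNT and 0 in both si3m libraries, with 1 library, siNT replicate 1, above the floor, and no fold is given. In all, 9 members were not tested, and 7 of them (Bcl3, Cd40, Ccl5, Ccl20, Cxcl2, Il1b and Tnf) had no library above the floor. No direction is read from these 7 rows.

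**Figure D4:**
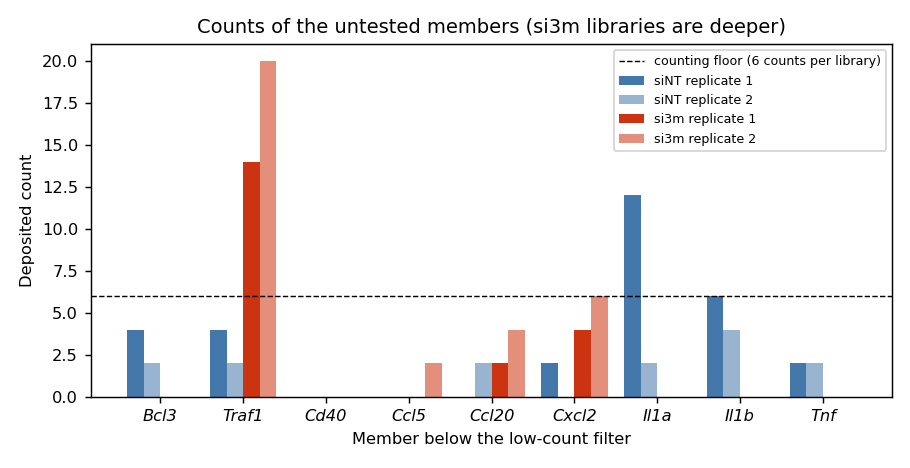
Deposited counts of the 9 members below the low-count filter in the 4 libraries, with a dashed line at the counting floor of 6 counts per library and no correction for the greater depth of the si3m libraries. Traf1 in si3m and Il1a in siNT replicate 1 are the bars above the line.

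The wider pathway, 73 further genes upstream and downstream of NF-kB, went both ways. Of 53 tested, 6 were higher and 8 lower, 11.3% and 15.1%, near the background shares given above, and the median log2 was -0.01. Among 16 tested receptors and proximal adaptors, 1 rose and 1 fell, 6.25% in each direction, against 14.0% and 13.9% of all tested genes. Tnfrsf1a, the main TNF receptor, went from 84.6 and 74.2 CPM to 103 and 93.1 CPM (log2 0.31, SE 0.11, adjusted p = 0.0489), a call lost under 6 of 14 alternatives, including without siNT replicate 2 (0.196) and without si3m replicate 1 (0.309). Tlr4, the receptor of bacterial lipopolysaccharide, fell from 30.9 and 33.5 CPM to 18.8 and 16.1 CPM (log2 -0.88, SE 0.21, adjusted p = 0.00464) and passed under all 14. Irak4, the kinase that relays Toll-like and interleukin 1 receptor signals, had a log2 value of -0.71 (SE 0.27) and did not pass (adjusted p = 0.0649). Ripk1, the scaffold kinase of the TNF receptor, did not pass either, with a log2 value of -0.48 (SE 0.20, adjusted p = 0.0885).

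Among 26 tested kinases, ubiquitin enzymes and their regulators, 1 rose and 3 fell. These were 3.85% and 11.5%, against 14.0% and 13.9% of all tested genes, so neither share exceeded the background. Sharpin, a subunit of the linear ubiquitin ligase that builds the chains NEMO binds, rose from 2.99 and 3.56 CPM to 9.42 and 10.8 CPM (log2 1.62, SE 0.38, adjusted p = 0.00509). It had only 12 and 14 deposited counts in siNT. The other subunits, named after their values were seen, did not pass. Rnf31 went from 5.48 and 5.59 CPM to 2.59 and 1.24 CPM (log2 -1.49, SE 0.56, adjusted p = 0.0597), and Rbck1 had a log2 value of 0.49 (SE 0.34). Fbxw11, an F-box protein of the ligase that destroys phosphorylated IkB, fell from 286 and 258 CPM to 187 and 181 CPM (log2 -0.56, SE 0.066, adjusted p = 1.02e-05). Xiap, a ubiquitin ligase and caspase inhibitor, fell from 52.8 and 55.4 CPM to 32.7 and 42.1 CPM (log2 -0.54, SE 0.16), a call lost without si3m replicate 1 (adjusted p = 0.272) and in DESeq2 (0.0506). Malt1, the paracaspase of the CARD-BCL10 complex, fell with a log2 value of -0.77 (SE 0.24) that lost its call in DESeq2 (adjusted p = 0.0625), with thinned counts (0.0742), without si3m replicate 2 (0.0605), without si3m replicate 1 (0.0916) and without siNT replicate 1 (log2 -0.40, adjusted p = 0.269).

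The 26 further target genes held 11 with enough counts, and 4 of these rose and 4 fell, 36.4% in each direction, against 14.0% and 13.9% of all tested genes. Of the 4 falls, 2 (Bcl2a1 and Lcn2) are genes that entered the test only through their siNT libraries and so had to be lower in si3m, and the shares are a description only. Cxcl10, which draws T cells and also answers to interferon, rose from 2.99 and 5.59 CPM to 21.4 and 26.3 CPM (log2 2.47, SE 0.32). Ier3, an early response gene, rose from 74.2 and 67.1 CPM to 130 and 136 CPM (log2 0.91, SE 0.099, adjusted p = 4.48e-06), and Cxcl12, a chemokine of stromal cells, from 135 and 148 CPM to 185 and 219 CPM (log2 0.51, SE 0.087). Cflar, an inhibitor of caspase 8 (named after its value was seen), rose with a log2 value of 0.45 that lost its call under 6 of 14 alternatives. Bcl2a1, a survival protein best known from blood cells, fell from 28 and 22 deposited counts in siNT to 0 in both si3m libraries, at least 16.6-fold lower against 3 fragments over the group. The other falls, named after their values were seen, were Lcn2 (22 and 12 counts in siNT, 2 and 0 in si3m), Il15 (log2 -1.29, SE 0.36) and Bcl2l1 (log2 -0.47, SE 0.12). In the annotation Cxcl10 overlaps Art3, Bcl2a1 overlaps RGD1560775, Irak4 overlaps Pus7l and Cflar overlaps Casp8, so these counts are uncertain. The leukocyte marker Adgre1 went from 24 and 34 counts in siNT to 4 and 0 in si3m. Like Bcl2a1 and Lcn2, Adgre1 entered the test only through its siNT libraries and so had to be lower. Any link between these falls was not tested. Cd14, in the same marker list, had 86 and 90 counts in siNT and 122 and 96 in si3m (log2 -0.60, adjusted p = 0.0612).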

How the data were processed

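The 4 libraries of rat myocardial cells hold ribosome-protected fragments. The deposited files hold whole-number counts for 31038 rows per library with no normalization, and the submitters' processing notes name build rn6 and the tools featureCounts, HISAT2 2.2.1, Trimmomatic 0.40, DESeq2 and limma. What each tool did, the annotation and the strand setting were not given in these sources. Between 94.9% and 97.3% of counts above 0 were even, so a fragment was taken as 2 counts and the floor of 3 fragments as 6. Replicates differed beyond counting noise (median chi-square 1.40 times its expectation in siNT, 1.48 in si3m, rows with 20 or more fragments), and each pair was kept as 2 samples. Floors and the interval for Traf1 (Clopper-Pearson) cover counting error only, and reads carried no molecular identifiers.

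Groups were taken from the sample titles. All genes passing filterByExpr (minimum count 10) entered a fit in edgeR 4.0.16 under R 4.3.3, using TMM scaling and a two-sided quasi-likelihood test, Benjamini-Hochberg adjustment over 12672 genes and a threshold of 0.05, with no block for replicate number. The script was tested on simulated data. Alternatives were DESeq2 1.42.0, its size factors, total count and upper quartile scaling, no filter, a filter of 50 counts in 2 libraries, halved and thinned counts, the replicate block, robust quasi-likelihood and leaving out each library.

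The members, the lists of pathway genes and cell type markers, and the rule for names were chosen with earlier results of these data known. That rule accounted for every member and took from each of the 3 pathway lists up to 4 tested genes with the smallest p. Of the 35 member symbols, all 35 matched RefSeq genes of GRCr8, used for gene overlaps only, since the counts rest on rn6. Promoter sequences and their coordinates are those of GRCr8. The result of 1 gene is not reported here.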

Additional observations from a re-analysis of the deposited data

How the results depend on the processing

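The 7 rises among members became 6 in DESeq2, with total count scaling and with thinned counts, and ran from 5 to 8 when 1 library was left out. The 2 falls became 1 in DESeq2 and 1 with thinned counts, and were 1 or 2 when 1 library was left out. The members' median log2 ran from 0.17 to 0.54 and the pathway genes lower in si3m from 5 to 10 over the same leave-outs. DESeq2 called 2526 of all genes, against 3528 in edgeR. The replicate block, using the numbers in the titles as pairs, left the members at 7 higher and 2 lower and called 3694 genes, and the deviations of same-numbered libraries from their group means correlated at -0.02, so the numbers were not taken as pairs. Some members that did not pass changed sign. Rel was -0.0655 with total count scaling and -0.16 with thinned counts, and Nfkb1 0.0889 with thinned counts. Birc2, near 0 throughout, was -0.0039 in DESeq2, -0.0029 with its size factors, -0.0737 with total count scaling and -0.0019 with the stricter filter. Leaving out 1 library gave log2 ranges of -0.68 to 0.61 for Nfkbib, -0.031 to 0.455 for Nfkbiz, -0.34 to 0.27 for Nfkb1, -0.27 to 0.38 for Rel, -0.079 to 0.102 for Birc2, -0.041 to 0.57 for Birc3, -0.43 to 0.0879 for Ccl7 and -0.063 to 0.53 for Lif. With 1 library left in a group, its spread is assumed to be that of the other group. Members with few counts had standard errors up to 0.63 on the log2 scale, so even larger differences could go uncalled at this depth. Relb, with that error, had a log2 value of 1.07 and did not pass. The cause of the changes between settings was not tested.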
